A study of Homo sapiens with 27 samples.

Results

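The complement genes examined here are 32 genes for proteins of the complement cascade and its inhibitors, chosen by symbol from a fixed list and found in both deposited expression tables, which hold 58735 genes each. They comprise the classical proteases C1R, C1S, C1RL and C2, the C4 copies C4A and C4B, the lectin pathway genes MBL2, MASP1 and MASP2, C3 with the alternative pathway proteases CFB and CFD, the terminal components C5, C6, C7, C8A, C8B, C8G and C9, the soluble inhibitors SERPING1, C4BPA, C4BPB, CFI, VTN and CLU, the factor H related genes CFHR2 to CFHR5, and the membrane inhibitors CD46, CD55 and CD59. The RNA came from HuH-7 and JHH-7 cells, which are human lines from liver cancers, carrying guide RNAs (sg). In each line there were sgNTC cells, which carry a non-targeting control guide and have the genotype label WT, and KLB (sgKLB), FGFR4 (sgFGFR4) and FGFR3/4 (sgFGFR3/4) knockouts. JHH-7 also had an FGFR1/3/4 knockout (sgFGFR1/3/4). There were 9 groups of 3 libraries, 27 in all. The labels call the libraries of a group biological replicates without saying whether they came from separate edits, pools or clones, so the p-values measure the spread between these cultures. All groups were grown with fetal bovine serum and antibiotics, and no group received a ligand or a drug.

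Complement is a set of plasma and membrane proteins that marks particles for removal and lyses membranes. The classical pathway starts with the C1 proteases, the lectin pathway with mannose-binding lectin and its MASP proteases, and the alternative pathway with factors B and D, and all of them lead to cleavage of C3 and then of C5, after which C6 to C9 form the membrane attack complex. Hepatocytes secrete most of the circulating components and soluble inhibitors, while CD46, CD55 and CD59 sit on the surface of nearly all cells. KLB encodes beta-klotho, which lets the bile acid hormone FGF19 act through FGFR4 on hepatocytes.

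Sequence upstream of the start is shown for 5 of the 8 members (C1R, C1S, C6, C4BPA, C4BPB, CFI, VTN and CLU) that rose after KLB knockout in both lines, since these moved together in separate cultures. Some of the HuH-7 rises depended on single libraries, and C6 was very low in sgNTC of both lines, as given below. Of the 32 members, 21 had promoter entries from RefSeq (GRCh38.p14). From the 250 bases before the start, each run stops at the first base of an annotated exon in GENCODE 29, which leaves none for VTN, and runs are written 5′ to 3′ on the gene's strand. Capitals mark a match to a motif of C/EBP, a family of liver transcription factors.
C1R: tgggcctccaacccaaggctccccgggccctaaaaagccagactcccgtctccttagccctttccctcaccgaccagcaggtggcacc
C6: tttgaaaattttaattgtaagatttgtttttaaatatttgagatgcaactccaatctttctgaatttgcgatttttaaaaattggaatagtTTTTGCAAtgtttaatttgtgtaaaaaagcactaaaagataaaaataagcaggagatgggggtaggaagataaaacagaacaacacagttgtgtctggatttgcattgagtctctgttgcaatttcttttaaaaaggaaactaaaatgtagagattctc
C4BPA: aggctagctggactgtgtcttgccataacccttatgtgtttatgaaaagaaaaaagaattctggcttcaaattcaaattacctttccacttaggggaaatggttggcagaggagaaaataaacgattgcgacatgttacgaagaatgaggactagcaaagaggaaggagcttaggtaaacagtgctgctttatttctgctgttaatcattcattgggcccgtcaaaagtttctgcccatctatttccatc
C4BPB: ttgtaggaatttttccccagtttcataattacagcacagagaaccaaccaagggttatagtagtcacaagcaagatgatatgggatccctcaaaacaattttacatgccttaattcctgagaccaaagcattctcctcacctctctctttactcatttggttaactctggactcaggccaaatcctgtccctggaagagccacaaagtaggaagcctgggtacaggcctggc
CFI: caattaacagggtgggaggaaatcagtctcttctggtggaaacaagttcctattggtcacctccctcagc
The C1R run is chr12:7092608-7092695 on the minus strand, the C6 run chr5:41261470-41261719 on the minus strand, the C4BPA run chr1:207103983-207104232 on the plus strand, the C4BPB run chr1:207088610-207088841 on the plus strand and the CFI run chr4:109802180-109802249 on the minus strand. In C6 the capitals are a C/EBP match that begins 159 bases before the start. The C6 run is 28.4% G or C and the C1R run 64.8%. The motifs searched on both strands were TTGCNNAA for C/EBP, CAAAGTCCA for HNF4 and CCGGAAG for ETS, and matches of different motifs may share bases. Over all 32 upstream windows of members, some genes having several starts, 8 held a C/EBP match, or 25.0%, against 9.05% of all 35116 windows of this length. These 8 belong to 6 of the 21 genes: C1R, C1RL, C6, CD59, MBL2 and VTN. HNF4 matches stood in 0 member windows against 0.32% of all windows, and ETS matches in 2 against 8.52%.

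Expression is given as FPKM (fragments scaled by transcript length and by library total), which can be compared between genes. Estimated depth was 14.2 to 27.7 M fragments per library. Pairs of JHH-7 sgFGFR1/3/4 libraries differed by a median absolute log2 value of 0.0441 to 0.0494 in highly expressed genes. Pairs within the other JHH-7 groups differed by 0.0601 to 0.1287. The labels name no batch, and the reason for this closer match was not tested. Every targeted gene lay below all sgNTC libraries of its line in each group that carried its guide, at 36.6% to 57% of the sgNTC mean. All 10 hepatocyte lineage genes checked reached 1 FPKM in every library. Among markers of other cells, PTPRC and CD3E stayed at or under 0.48 FPKM and the endothelial genes VWF, CDH5, KDR and TEK at or under 0.23, with KDR at 0 in all libraries. Other genes of these lists were expressed: CD14 at 121 to 153 FPKM and LUM at 139 to 273 in HuH-7, and LYZ at 165 to 358, CD68 at 30.03 to 63.6 and PECAM1 at 9.22 to 15.7 in JHH-7.

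Both lines expressed most complement genes, and the range between members was wide. CLU, clusterin, which binds the terminal complex, had the highest mean of the members in both lines, with 4180, 4061 and 4662 FPKM in the sgNTC libraries of HuH-7 and 1758, 1757 and 1806 in those of JHH-7. C3 followed in HuH-7 at 671 to 718 FPKM and VTN, vitronectin, in JHH-7 at 307 to 345. At the other end C9, the pore-forming last component, stayed at or under 0.92 FPKM in every library, and CFHR4 and CFHR5 at or under 0.68. Genes needed 1 FPKM in at least 3 libraries of a line to be tested, which 26 members did in HuH-7 and 29 in JHH-7. Below this limit were C7, C9 and CFHR2 to CFHR5 in HuH-7 and C9, CFHR4 and CFHR5 in JHH-7. The sgNTC libraries of C6 and MASP2 in both lines, and of C7 and CFHR2 in JHH-7, did not reach the limit by themselves, so these genes were tested because of other groups. Summed over the 32 genes, complement transcripts made up 0.777% ± 0.0199 (SD, n = 3) of all FPKM in HuH-7 sgNTC and 0.394% ± 0.00970 in JHH-7 sgNTC. These shares were 1.02% ± 0.0127 and 0.528% ± 0.00410 in the sgKLB groups, and CLU supplies most of the sum.

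Several complement genes had very different levels in the 2 lines before any knockout, although the number of members called was a share near that of all genes. Between the sgNTC groups 11 members were higher in JHH-7 and 7 in HuH-7 (limma on log2(FPKM + 1), Benjamini-Hochberg adjusted p under 0.05, the threshold used throughout), where 35.0% and 28.9% of all 16731 genes tested were called in these directions. Of the 11, CFHR3 was tested only because it passed the limit in JHH-7, and the other 10 passed it in HuH-7 sgNTC too. SERPING1, the C1 inhibitor, stood at 136, 174 and 138 FPKM in JHH-7 and at 1.77, 1.99 and 2.04 in HuH-7, a log2 difference of 5.67 ± 0.13 (SE, adjusted p = 5.02e-20). CFB differed by 3.44 ± 0.24 (adjusted p = 2.56e-11) and CD55, which speeds decay of C3 convertases, by 3.13 ± 0.12 (adjusted p = 4.99e-16), with no overlap between libraries. C4BPA, C4BPB and C4A were also higher in JHH-7, by 2.76, 2.54 and 2.49. In HuH-7 the higher genes were C5 (-2.39 ± 0.17, adjusted p = 1.89e-11), C3, CLU, CFI, CD59, VTN and C1S. The lines stand in separate deposited tables, and FPKM is scaled within each library. CFHR3 was listed at 0 in all HuH-7 sgNTC libraries and at 2.14, 1.68 and 2.42 FPKM in JHH-7.

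Complement transcripts rose most often after KLB knockout, though in HuH-7 not under every scaling. In HuH-7 sgKLB 13 of 26 tested members rose and 0 fell in the limma fit, against 8.98% rising and 8.62% falling of all 14716 genes tested, and the members' median log2 change was 0.45 against 0.02 over all genes. In JHH-7 sgKLB 13 of 29 rose and 2 fell, with 15.5% and 16.4% of 14987 genes called and medians of 0.32 and -0.02. Of the rising members, 12 in HuH-7 and 11 in JHH-7 passed the expression limit in sgNTC alone. Loss of FGFR4 changed few members: 1 rose and 0 fell in HuH-7 (background 2.07% and 1.64%, with 8 members at an unadjusted p under 0.05), and 3 rose and 1 fell in JHH-7 (2.42% and 1.83%). With FGFR3/4 knockout 8 rose and 1 fell in HuH-7 (8.90% and 7.22%), and 3 rose and 1 fell in JHH-7 (2.24% and 1.29%). With TPM scaling 13 members rose in HuH-7 sgFGFR3/4, as in HuH-7 sgKLB, while 2238 and 1730 of all genes rose. The FGFR1/3/4 knockout of JHH-7 was the only one with more falls than rises, 14 against 8 (19.0% falling and 20.8% rising over all genes), and a members' median of -0.19 against 0.03. The expression limit was passed in sgNTC alone by 7 of the 8 rising members of HuH-7 sgFGFR3/4 and 2 of the 3 of JHH-7 sgFGFR4. In JHH-7 sgFGFR1/3/4 it was passed there by 6 of the 8. The remaining rising members of these groups were tested because of other groups than sgNTC. Over the 7 knockouts 3 members were never tested, and MASP2, C5, C7 and CFHR3 were tested but never called.

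**Figure D1:**
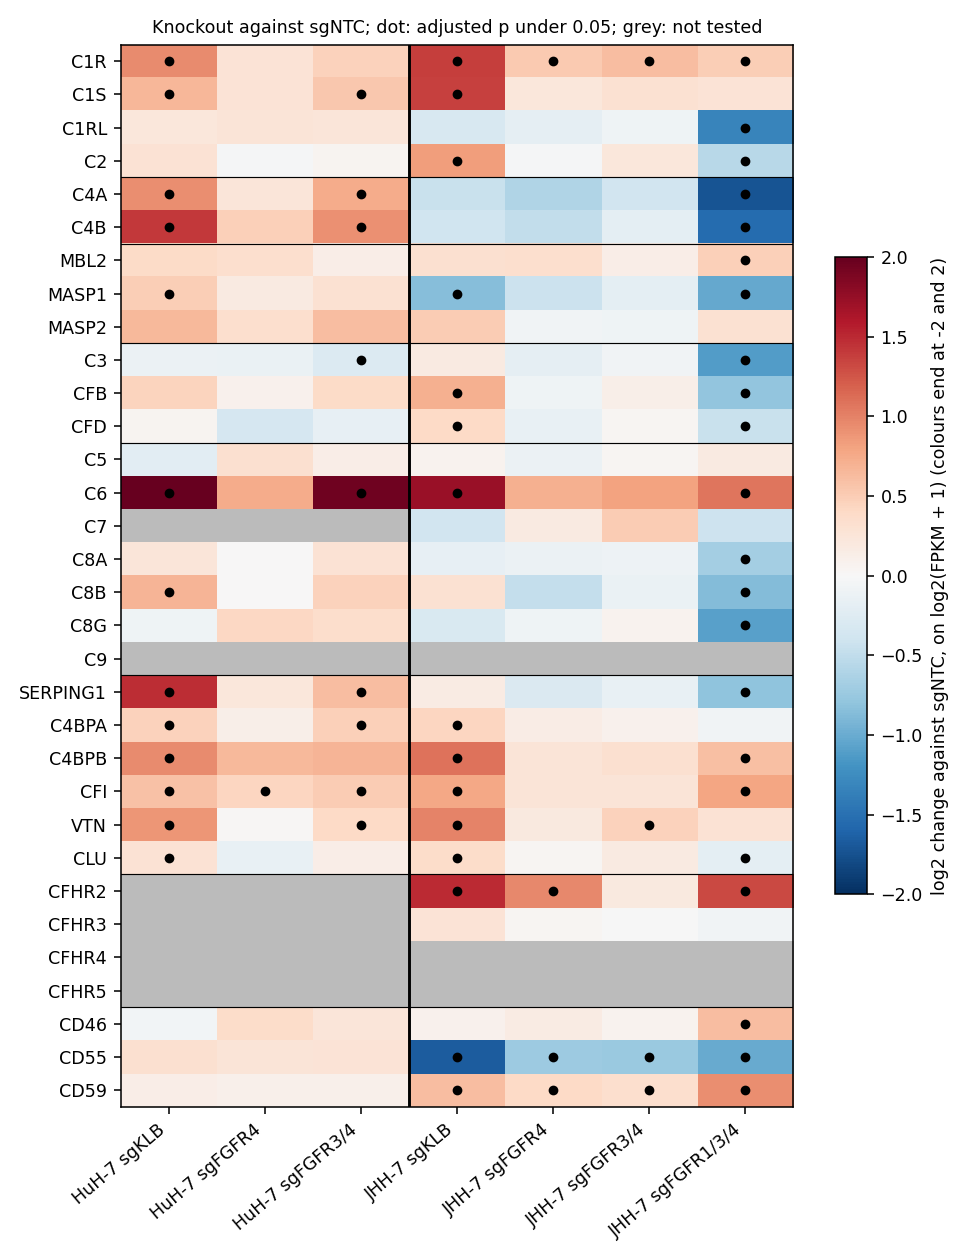
Log2 change of each complement gene (rows, ordered by role) in each knockout against sgNTC of its line (columns), on log2(FPKM + 1). Dots mark adjusted p under 0.05 and grey marks genes not tested. C6, CFI and C1R are red in every column, C4A, C4B and MASP1 are red in the HuH-7 columns and blue in the JHH-7 columns, and CD55 is blue only in the JHH-7 columns.

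Some of these counts rest on single libraries or settings. The HuH-7 sgFGFR4 count was 0 without sgNTC replicate 2 or 3 or without any 1 sgFGFR4 library. In HuH-7 sgFGFR3/4 it fell from 9 to 4 without sgNTC replicate 3, to 5 without sgFGFR3/4 replicate 1 and to 4 without sgFGFR3/4 replicate 3. The JHH-7 sgFGFR4 count of 4 became 1 without sgFGFR4 replicate 1 and 2 without replicate 2. That of JHH-7 sgFGFR3/4, also 4, became 2 without any 1 sgNTC library and without sgFGFR3/4 replicate 1 or 3. Counts for sgKLB in both lines and for sgFGFR1/3/4 stayed within 1.5 times whichever library was left out. Summed FPKM of the 10 hepatocyte lineage genes was above sgNTC in every knockout, also where few members rose or more fell than rose. It was 5871 to 6352 in HuH-7 sgNTC and 9019 to 9978 in sgKLB, where 8 of the 10 rose. In JHH-7 it was 14419 to 16515 in sgNTC and 31554 to 32344 in sgKLB, where 9 rose. The sgFGFR4 groups held 6671 to 7410 in HuH-7 and 18636 to 19817 in JHH-7. In sgFGFR3/4 the sum was 8416 to 8718 in HuH-7 and 19412 to 21890 in JHH-7. It was 22776 to 24061 in JHH-7 sgFGFR1/3/4, where 14 members fell and 8 rose. The part of these lineage genes in the complement changes was not tested. Among 7 immune cell genes the sum was 182 to 188 in HuH-7 sgNTC and 165 to 177 in sgKLB, and 313 to 358 in JHH-7 sgNTC and 230 to 245 in sgKLB, mostly CD14 in HuH-7 and LYZ in JHH-7. That of 6 stromal genes was 206 to 249 in HuH-7 sgNTC and 184 to 198 in sgKLB, and 5.46 to 6.45 in JHH-7 sgNTC and 9.91 to 10.9 in sgKLB. In bulk RNA fewer cells expressing a gene and less RNA per cell cannot be told apart.

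C1R and C1S, the proteases of the C1 complex, rose after KLB knockout in both lines. C1R measured 8.30, 9.82 and 12.1 FPKM in HuH-7 sgNTC and 23.0, 14.5 and 24.6 in sgKLB. The difference was 0.95 ± 0.23 on the log2 scale (SE, adjusted p = 0.0139). In JHH-7 it went from 7.21, 8.71 and 8.29 to 25.0, 21.0 and 21.9, a change of 1.38 ± 0.11 (adjusted p = 2.67e-07). All sgKLB libraries lay above all sgNTC libraries of their line, although 1 HuH-7 sgKLB library was much lower than the other two. C1R also rose in the other JHH-7 knockouts, by 0.52 ± 0.11 in sgFGFR4 (adjusted p = 0.0152), 0.61 ± 0.11 in sgFGFR3/4 (0.00639) and 0.49 ± 0.11 in sgFGFR1/3/4 (0.00250), where the libraries held 10.8 to 14.4 FPKM. The HuH-7 call was lost without sgNTC replicate 1 (adjusted p = 0.0515), sgKLB replicate 1 (0.0527) or sgKLB replicate 3 (0.0608), and the JHH-7 sgFGFR4 call without sgNTC replicate 1 (0.0609) or sgFGFR4 replicate 1 (0.0822). When only the groups compared were fitted, the sgFGFR4 and sgFGFR3/4 calls were lost as well (0.0845 and 0.105).

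C1S held 22.7, 15.0 and 18.0 FPKM in HuH-7 sgNTC and 28.3, 32.0 and 28.0 in sgKLB (0.66 ± 0.14, adjusted p = 0.00672). Its HuH-7 sgFGFR3/4 libraries held 23.2, 31.1 and 27.8 (0.55 ± 0.14, adjusted p = 0.0224). In JHH-7 it rose from 13.4, 11.4 and 11.4 to 30.2, 33.4 and 33.8 in sgKLB, a change of 1.36 ± 0.13 (adjusted p = 2.30e-06). None of these groups overlapped with its sgNTC, and in JHH-7 the receptor knockouts stayed between 11.3 and 17.2 FPKM with no call. The sgFGFR3/4 call was lost without sgNTC replicate 2 (adjusted p = 0.0733) or 3 (0.0662) and without sgFGFR3/4 replicate 2 (0.0567) or 3 (0.0726), with no filter on low values (0.0591), and with only the groups compared (0.0824). C1S overlaps EMG1 on its own strand and LPCAT3 on the other, C1R overlaps C1RL on the same strand, and no source used here says whether counting used strand.

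C2, the protease of the classical C3 convertase, and C1RL, a C1R-like protease, behaved differently from this pair. C2 measured 47.1, 56.0 and 50.02 FPKM in JHH-7 sgNTC, 84.4, 108 and 84.7 in sgKLB and 34.7, 35.3 and 32.7 in sgFGFR1/3/4. The 3 groups did not overlap, with changes of 0.84 ± 0.09 in sgKLB (adjusted p = 9.30e-06) and -0.56 ± 0.09 in sgFGFR1/3/4 (0.000318). C2 was not called in HuH-7, where all libraries held 16.1 to 27.4 FPKM. C1RL fell in JHH-7 sgFGFR1/3/4, from 18.9, 20.4 and 25.6 FPKM to 8.02, 7.76 and 8.26 (-1.32 ± 0.14, adjusted p = 5.15e-06), and was called in no other knockout against sgNTC. C2 and CFB are neighbours that share annotated sequence and a read-through transcript.

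C4A and C4B encode 2 forms of C4, the source of the C4b part of the classical and lectin convertases, and are near-identical copies, so the split of reads between them is uncertain. C4A went from 3.04, 3.11 and 3.18 FPKM in HuH-7 sgNTC to 7.45, 7.14 and 5.96 in sgKLB (0.93 ± 0.21, adjusted p = 0.0106), and C4B from 2.49, 1.78 and 2.58 to 9.81, 8.06 and 5.74 (1.42 ± 0.21, adjusted p = 0.000744). In HuH-7 sgFGFR3/4 they held 5.43, 3.96 and 9.30 (0.75 ± 0.21, adjusted p = 0.0362) and 4.16, 4.67 and 6.88 (0.91 ± 0.21, 0.0147). Every HuH-7 library of these knockouts was above every sgNTC library. JHH-7 went the other way in sgFGFR1/3/4: C4A fell from 20.6, 25.8 and 20.4 FPKM to 7.98, 3.81 and 7.04 (-1.72 ± 0.20, adjusted p = 1.32e-05) and C4B from 4.55, 5.72 and 6.95 to 1.59, 1.54 and 0.86 (-1.53 ± 0.24, 0.000155). In JHH-7 sgKLB C4A held 15.8, 17.2 and 15.1 with a change of -0.44 ± 0.20 that missed the threshold (adjusted p = 0.105). Added into 1 row, which avoids the split, C4A plus C4B changed by 1.28 ± 0.21 in HuH-7 sgKLB (adjusted p = 0.00118), 0.92 ± 0.21 in HuH-7 sgFGFR3/4 (0.0122) and -1.78 ± 0.18 in JHH-7 sgFGFR1/3/4 (3.21e-06), an alternative chosen after seeing the data. In JHH-7 sgKLB the summed row changed by -0.45 ± 0.18 (adjusted p = 0.063). The HuH-7 sgFGFR3/4 call of C4A alone was lost without any 1 sgNTC library (adjusted p = 0.0658 to 0.0856) and without sgFGFR3/4 replicate 1 (0.0698) or 3 (0.0997, change 0.46), with no filter (0.0870), quantile normalization (0.0888) or only the groups compared (0.107). That of C4B was lost without sgNTC replicate 2 (0.0517) or sgFGFR3/4 replicate 3 (0.0642).

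In the lectin pathway MASP1, a protease that associates with mannose-binding lectin, moved in opposite directions in the 2 lines. HuH-7 sgNTC libraries held 29.9, 33.7 and 32.9 FPKM and sgKLB libraries 47.3, 42.5 and 46.7 (0.49 ± 0.11, adjusted p = 0.00726). JHH-7 sgNTC libraries held 59.7, 71.7 and 80.8, against 35.6, 44.0 and 36.7 in sgKLB (-0.85 ± 0.12, adjusted p = 7.03e-05) and 34.9, 32.1 and 34.9 in sgFGFR1/3/4 (-1.03 ± 0.12, 1.34e-05). The groups did not overlap in any of these 3 comparisons. JHH-7 sgFGFR4 libraries also lay below all sgNTC libraries, at 45.1, 53.2 and 58.5, with an adjusted p of 0.0590. MBL2, mannose-binding lectin itself, stayed between 1.41 and 3.84 FPKM and was called in JHH-7 sgFGFR1/3/4 at 0.48 ± 0.17 (adjusted p = 0.0393), a call lost in 9 of 13 alternatives. Among these, its change was 0.32 without sgNTC replicate 2 (0.181) and 0.09 with a length and GC correction (0.669), and the call was also lost without sgNTC replicate 1 (0.0593) or any 1 sgFGFR1/3/4 library (0.0526 to 0.128). MASP2, the protease that cleaves C4 and C2, stayed between 0.45 and 2.44 FPKM.

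C3, on which all pathways converge, changed little with KLB knockout and fell strongly in JHH-7 sgFGFR1/3/4. In JHH-7 it measured 181, 211 and 191 FPKM in sgNTC, 212, 242 and 211 in sgKLB and 94.1, 86.6 and 87.4 in sgFGFR1/3/4. The sgFGFR1/3/4 libraries were far below all others, with a mean 0.460 times that of sgNTC (-1.11 ± 0.08, adjusted p = 2.27e-07), and sgKLB overlapped with sgNTC (0.19 ± 0.08, adjusted p = 0.102). In HuH-7 C3 held 671, 678 and 718 in sgNTC and 559, 625 and 526 in sgFGFR3/4, a fall by 0.28 ± 0.07 (adjusted p = 0.0171) with no overlap. This call was lost without sgNTC replicate 3 (0.0631) or sgFGFR3/4 replicate 1 (0.0609) or 3 (0.0689) and with only the groups compared (0.0680), and the change was -0.17 with TPM scaling and -0.18 with quantile normalization. CFB, factor B, measured 30.9, 37.3 and 35.3 FPKM in JHH-7 sgNTC, 48.4, 73.9 and 51.0 in sgKLB (0.71 ± 0.17, adjusted p = 0.00517) and 25.1, 18.1 and 16.2 in sgFGFR1/3/4 (-0.79 ± 0.17, 0.00199). All of its sgKLB libraries were above, and all of its sgFGFR1/3/4 libraries below, those of sgNTC. In HuH-7 CFB stayed at 1.60 to 6.23 FPKM with no call. CFD, factor D, which cleaves factor B, had the same order on a smaller scale in JHH-7: 13.1 to 15.7 FPKM in sgNTC, 18.1 to 19.7 in sgKLB (0.39 ± 0.11, adjusted p = 0.0108) and 9.85 to 10.6 in sgFGFR1/3/4 (-0.45 ± 0.11, 0.00368). Its sgKLB call was lost without sgNTC replicate 3 (0.0514) and its sgFGFR1/3/4 call with a length and GC correction (-0.18, adjusted p = 0.103).

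Of the terminal components, C6, which binds C5b to begin the membrane attack complex, showed the largest rise of any member in sgKLB of both lines on the log2(FPKM + 1) scale, although in JHH-7 CFHR2 rose more with a pseudocount of 0.1 (3.02 against 2.90). In HuH-7 it was at 0.28, 0.35 and 0.14 FPKM in sgNTC, 4.93, 5.60 and 6.23 in sgKLB and 3.01, 4.08 and 4.61 in sgFGFR3/4. The changes on log2(FPKM + 1) were 2.39 ± 0.21 (adjusted p = 1.68e-05) and 1.95 ± 0.21 (0.000192). JHH-7 sgNTC held 0.25, 0.95 and 0.32, sgKLB 4.59, 3.44 and 3.75 (1.73 ± 0.26, adjusted p = 0.000153) and sgFGFR1/3/4 2.47, 2.32 and 1.62 (1.08 ± 0.26, 0.00490). None of these groups overlapped with sgNTC, yet sgNTC was under the limit for testing in both lines, and a pseudocount of 0.1 gives larger changes: 4.04, 3.51, 2.90 and 2.04 in the same order. The sgFGFR4 libraries of HuH-7 held 1.85, 0.97 and 0.64 and those of JHH-7 2.47, 0.96 and 1.10, also above sgNTC in each line, with adjusted p-values of 0.0626 and 0.155.

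The 3 chains of C8 fell together in JHH-7 sgFGFR1/3/4. C8A went from 5.13, 5.55 and 4.18 FPKM to 3.16, 2.51 and 2.51 (-0.67 ± 0.16, adjusted p = 0.00441), C8B from 3.07, 3.14 and 2.06 to 1.72, 0.60 and 0.94 (-0.87 ± 0.29, 0.0277) and C8G from 3.52, 2.08 and 3.80 to 0.75, 1.63 and 0.53 (-1.08 ± 0.38, 0.0365). No sgFGFR1/3/4 library reached the lowest sgNTC library for any chain. The call for C8B was lost without sgNTC replicate 1 or 2 or sgFGFR1/3/4 replicate 2 or 3 (0.0722 to 0.112) and with no filter (0.0706), and that for C8G without sgNTC replicate 1 or 3 or sgFGFR1/3/4 replicate 1 or 3 (0.0927 to 0.121), with no filter (0.0956) and with a length and GC correction (0.110). With a pseudocount of 0.1 their changes were -1.36 and -1.68. In HuH-7 sgKLB C8B rose from 1.88, 1.31 and 1.90 FPKM to 2.62, 3.44 and 3.94 (0.68 ± 0.16, adjusted p = 0.0119), lost without sgNTC replicate 2 (0.0520) or sgKLB replicate 3 (0.0552). C5, whose cleavage starts the terminal pathway, was called in no knockout, with 116 to 194 FPKM in HuH-7 and 20.1 to 37.8 in JHH-7. C7 ranged from 0.06 to 9.88 FPKM over JHH-7 libraries, and its highest value came from 1 sgFGFR3/4 library whose companions held 0.15 and 0.64.

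All 6 soluble inhibitors were called up after KLB knockout in HuH-7, with a median change of 0.73, and 5 of 6 in JHH-7, with a median of 0.61, where 8.98% and 15.5% of all genes rose. Of the HuH-7 calls, those of C4BPA, C4BPB and CLU were lost when 1 library was left out, as given with each gene. VTN, which blocks insertion of the terminal complex, held 633, 618 and 648 FPKM in HuH-7 sgNTC and 1046, 1223 and 1244 in sgKLB (0.88 ± 0.09, adjusted p = 5.33e-05). In JHH-7 it held 307, 345 and 326 against 639, 638 and 676 (1.00 ± 0.12, adjusted p = 1.30e-05), a mean 2.00 times that of sgNTC. The groups were far apart in both lines. HuH-7 sgFGFR3/4 libraries held 821, 959 and 734 (0.40 ± 0.09, adjusted p = 0.0131, and 0.0503 with only the groups compared). JHH-7 sgFGFR3/4 libraries held 546, 381 and 434 (0.46 ± 0.12, adjusted p = 0.0435). The latter call was lost without any 1 sgNTC library (0.0663 to 0.139) and without sgFGFR3/4 replicate 1 (0.127) or 3 (0.0944), with no filter (0.126) and with only the groups compared (0.171).

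CFI, the protease that inactivates C3b and C4b, was called up in 5 of the 7 knockouts. Its HuH-7 libraries held 87.8, 77.9 and 68.7 FPKM in sgNTC, 115, 126 and 111 in sgKLB (0.58 ± 0.10, adjusted p = 0.00185), 98.6, 107 and 109 in sgFGFR4 (0.43 ± 0.10, 0.0455) and 109, 100.1 and 126 in sgFGFR3/4 (0.51 ± 0.10, 0.00690). All knockout libraries lay above all sgNTC libraries. JHH-7 libraries held 31.2, 31.2 and 37.9 in sgNTC, 59.6, 58.6 and 55.7 in sgKLB (0.78 ± 0.10, adjusted p = 4.99e-05) and 59.7, 59.2 and 56.1 in sgFGFR1/3/4 (0.79 ± 0.10, 4.47e-05). The last 2 groups were alike in level and both far above sgNTC. The HuH-7 sgFGFR4 call, the only member called in that comparison, was lost in 10 of 13 alternatives, among them without sgNTC replicate 2 (0.0832) or 3 (0.159), without sgFGFR4 replicate 1 (0.0725), 2 (0.168) or 3 (0.113), with no filter (0.110), quantile normalization (0.0542), only the groups compared (0.0879) or a length and GC correction (0.12, adjusted p = 0.214). That correction also brought the change to 0.26 in HuH-7 sgFGFR3/4 and 0.44 in JHH-7 sgFGFR1/3/4, both still called.

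C4BPB and C4BPA encode the chains of C4b-binding protein, a cofactor for CFI. C4BPB rose from 3.47, 2.09 and 2.32 FPKM to 6.77, 5.90 and 5.18 in HuH-7 sgKLB (0.95 ± 0.24, adjusted p = 0.0158), and from 18.3, 20.0 and 21.2 to 43.8, 39.2 and 46.2 in JHH-7 sgKLB (1.08 ± 0.09, 3.45e-07). JHH-7 sgFGFR1/3/4 libraries held 28.0, 31.4 and 32.2 (0.60 ± 0.09, adjusted p = 9.79e-05). These groups did not overlap with sgNTC. C4BPA rose less, by 0.46 ± 0.14 in HuH-7 sgKLB (adjusted p = 0.0436), 0.48 ± 0.14 in HuH-7 sgFGFR3/4 (0.0407) and 0.43 ± 0.09 in JHH-7 sgKLB (0.00200), where it went from 28.8 to 32.3 FPKM in sgNTC to 39.99 to 43.4. The HuH-7 calls of C4BPA were each lost in 9 of 13 alternatives, those of sgKLB with adjusted p-values up to 0.153 (without sgNTC replicate 2 or 3 or any 1 sgKLB library, among others) and those of sgFGFR3/4 up to 0.215 (when sgNTC replicate 2, sgNTC replicate 3 or the first or the second sgFGFR3/4 library was left out, among others, and at a change of 0.30 with quantile normalization). The HuH-7 call of C4BPB was lost without sgNTC replicate 2 (0.0611) or sgKLB replicate 1 (0.0570).

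SERPING1, the inhibitor of C1R, C1S and the MASP proteases, rose in HuH-7, the line where it was low. HuH-7 held 1.77, 1.99 and 2.04 FPKM in sgNTC, 6.84, 7.05 and 7.59 in sgKLB and 3.30, 3.97 and 3.27 in sgFGFR3/4. The 3 groups did not overlap, and the changes were 1.476 ± 0.16 (adjusted p = 7.63e-05) and 0.62 ± 0.16 (0.0223). In JHH-7 the sgKLB libraries, at 154, 192 and 156, overlapped with sgNTC, at 136, 174 and 138 (0.17 ± 0.12, adjusted p = 0.316), and the sgFGFR1/3/4 libraries were lower, at 83.0, 89.4 and 80.7 (-0.81 ± 0.12, 0.000109). The HuH-7 sgFGFR3/4 call was lost when sgNTC replicate 1, sgNTC replicate 3 or any 1 sgFGFR3/4 library was left out (0.0508 to 0.0525), with quantile normalization (0.113) and with only the groups compared (0.0515). CLU rose by 0.29 ± 0.07 in HuH-7 sgKLB (5075 to 5519 FPKM, adjusted p = 0.0129) and by 0.37 ± 0.05 in JHH-7 sgKLB (2233 to 2335, 3.01e-05). Its HuH-7 call was lost without sgNTC replicate 2 (0.0561) or sgKLB replicate 1 (0.0505). In JHH-7 sgFGFR1/3/4 CLU was at 1527 to 1580 FPKM (-0.19 ± 0.05, adjusted p = 0.00440), a direction that quantile normalization turned (0.03, adjusted p = 0.620).

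Among the factor H related genes, whose reads may be split with near-identical copies, CFHR2 rose in JHH-7. It held 0.24, 0.06 and 0.52 FPKM in sgNTC, 2.73, 2.15 and 2.73 in sgKLB (1.49 ± 0.23, adjusted p = 0.000200), 2.32, 1.62 and 0.72 in sgFGFR4 (0.97 ± 0.23, 0.0317) and 2.31, 2.27 and 1.92 in sgFGFR1/3/4 (1.33 ± 0.23, 0.000459). All libraries of these knockouts were above sgNTC, which did not reach the limit for testing, and sgFGFR3/4 overlapped with it at 0.23 to 0.71. With a pseudocount of 0.1 the changes were 3.02, 2.22 and 2.81. The sgFGFR4 call was lost without sgNTC replicate 1 (0.0782) or 2 (0.120) or sgFGFR4 replicate 1 (0.160) or 2 (0.107) and with no filter (0.0723), and a length and GC correction brought the sgFGFR1/3/4 change to 0.88. In HuH-7 CFHR2 reached at most 1.44 FPKM and was not tested. CFHR3 stayed between 1.13 and 3.14 in JHH-7 and at or under 0.08 in HuH-7.

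Of the 3 membrane inhibitors, 2 rose and 1 fell in JHH-7 sgFGFR1/3/4, where 20.8% of all genes rose and 19.0% fell. In HuH-7 0 were called in any knockout. There 8.98% of all genes rose and 8.62% fell in sgKLB, 2.07% and 1.64% in sgFGFR4, and 8.90% and 7.22% in sgFGFR3/4. The line difference of CD46 was not called for sgKLB, sgFGFR4 or sgFGFR3/4 (adjusted p = 0.666, 0.607 and 0.645). CD55 measured 46.3, 48.8 and 46.4 FPKM in JHH-7 sgNTC, 14.6, 13.4 and 14.4 in sgKLB, 24.6, 27.8 and 32.9 in sgFGFR4, 24.8, 29.9 and 29.4 in sgFGFR3/4 and 21.6, 25.6 and 22.0 in sgFGFR1/3/4. Every knockout library lay below every sgNTC library, and sgKLB lay below all others. The falls were -1.67 ± 0.11 (adjusted p = 3.74e-08), -0.72 ± 0.11 (0.00249), -0.73 ± 0.11 (0.00160) and -1.003 ± 0.11 (6.89e-06), and each kept its call in all alternatives. HuH-7 CD55 stayed between 3.62 and 6.44 FPKM.

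CD59, which blocks C9 polymerization, moved the opposite way in JHH-7. It held 62.8, 65.9 and 59.6 FPKM in sgNTC, 98.3, 90.1 and 102 in sgKLB (0.62 ± 0.09, adjusted p = 6.97e-05) and 127, 119 and 117 in sgFGFR1/3/4 (0.93 ± 0.09, 1.78e-06). The sgFGFR4 libraries, at 77.5 to 91.9, and sgFGFR3/4 libraries, at 73.1 to 89.5, were also above all sgNTC libraries (0.41 ± 0.09, adjusted p = 0.0167, and 0.33 ± 0.09, 0.0487). These last 2 calls were lost with only the groups compared (0.0738 and 0.203). The first was also lost without sgNTC replicate 3 (0.0597) or sgFGFR4 replicate 1 (0.0939) or 2 (0.0514), and the second without any 1 sgNTC library (0.0653 to 0.156), without sgFGFR3/4 replicate 1 (0.145) or 3 (0.0922), with no filter (0.125) and with a length and GC correction (0.0784). CD46, a cofactor for CFI, rose in JHH-7 sgFGFR1/3/4, from 81.0, 64.7 and 77.0 FPKM to 112, 111 and 117 (0.61 ± 0.11, adjusted p = 0.000703), a change of 0.21 with a length and GC correction.

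KLB and triple receptor knockout were compared directly in JHH-7, where 16 members were higher in sgKLB and 3 lower, against 15.9% higher and 19.7% lower over all genes. Of the 16, 14 passed the expression limit in sgFGFR1/3/4 alone, while C4B and C8B were tested because of other groups. CFB (1.497 ± 0.17, adjusted p = 2.30e-05), C2 (1.40 ± 0.09, 3.39e-07) and C3 (1.30 ± 0.08, 2.23e-07) differed most, followed by C4A (1.28), C8B (1.18), C4B (1.14), C1S (1.08) and C1RL (0.997). By role all 4 classical proteases, both C4 copies, all 3 genes of C3 and the alternative pathway and 5 of 6 soluble inhibitors were higher in sgKLB, and all 3 membrane inhibitors were lower. CD55 differed by -0.67 ± 0.11 (adjusted p = 0.000352), CD46 by -0.53 ± 0.11 (0.00271) and CD59 by -0.32 ± 0.09 (0.0108). CFI did not differ detectably (-0.01 ± 0.10, adjusted p = 0.959). The call for C8A (0.50, adjusted p = 0.0265) was lost without sgKLB replicate 1 or 3 or sgFGFR1/3/4 replicate 2 or 3 (0.0713 to 0.0823) and with no filter (0.0578), and that for CD59 without sgKLB replicate 2 (0.0509).

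Base composition moved with this contrast and with the sgFGFR1/3/4 changes. Across all tested genes the Spearman correlation of transcript GC content with the log2 change was -0.43 for sgFGFR1/3/4 against sgNTC and 0.51 for sgKLB against sgFGFR1/3/4, compared with 0.02 and 0.05 for sgKLB against sgNTC in HuH-7 and JHH-7, -0.50 for HuH-7 sgFGFR4 and -0.31 for HuH-7 sgFGFR3/4, as a description over genes that share libraries. The 14 members that fell in sgFGFR1/3/4 had a median GC content of 54.6% (42.6% to 68.6%) and the 8 that rose 42.8% (37.0% to 55.1%). With a length and GC correction the counts against sgNTC were again 8 up and 14 down, and the direct comparison had 21 higher and 2 lower, with CD46 no longer called (-0.07, adjusted p = 0.369) and CD55 at -0.34. The part of composition in the uncorrected values was otherwise not tested.

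Against sgFGFR3/4, the knockout that also targets FGFR1 had 12 members lower and 5 higher (15.4% and 16.8% over all genes). The Spearman correlation of GC content with the log2 change was -0.48 here too, and a length and GC correction gave 13 lower and 2 higher. FGFR1 was lower in this comparison (-0.63, adjusted p = 0.00537), and so were FGFR3 (-0.33, 0.00177) and FGFR4 (-0.32, 0.00945). The lower genes were C4A and C4B (both -1.34), C1RL (-1.22), C8G (-1.16), C3 (-1.04), CFB (-0.91), MASP1 (-0.83), C2 (-0.78), SERPING1 (-0.65), C8A (-0.57), CFD (-0.49) and CLU (-0.37), with adjusted p-values from 1.35e-06 for C3 to 0.0328 for C8G. The higher genes were CFHR2 (1.13), CD59 (0.60), CD46 (0.54), CFI (0.53) and C4BPB (0.28). Of these 5, 4 passed the expression limit in sgFGFR3/4 alone, and CFHR2 was tested because of other groups. With a length and GC correction CFI (0.19, adjusted p = 0.0986), CD46 (0.14, 0.0647) and C4BPB (0.17, 0.178) were no longer called, nor was C8G (0.0887), CFHR2 was at 0.72 and CFD at -0.30, and CLU was lost with quantile normalization (-0.11, 0.104). C8A was lost without sgFGFR3/4 replicate 3 (0.0699) or sgFGFR1/3/4 replicate 2 (0.0536) or 3 (0.0541), C8G without sgFGFR3/4 replicate 1 or 3 or sgFGFR1/3/4 replicate 1 or 3 (0.0667 to 0.155), and C4BPB without sgFGFR3/4 replicate 2 (0.0730) or sgFGFR1/3/4 replicate 2 (0.0821) or 3 (0.0978).

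In HuH-7, sgFGFR3/4 was set against sgFGFR4 and sgKLB against sgFGFR3/4, and sgKLB was not tested against sgFGFR4. C6 alone was higher in sgFGFR3/4 than in sgFGFR4 (1.21 ± 0.21, adjusted p = 0.0135) and 0 members were lower, with 1.02% and 0.598% of all genes called. The sgFGFR4 libraries of C6 did not all reach the expression limit, so this test also rests on the groups where C6 is high. VTN (0.49 ± 0.09, adjusted p = 0.0419) and SERPING1 (0.86 ± 0.16, 0.0419) were higher in sgKLB than in sgFGFR3/4 and 0 were lower, with 0.217% and 0.333% called. The first count was 0 without sgFGFR4 replicate 2 or 3 or sgFGFR3/4 replicate 2 (C6 then at 0.0632, 0.0635 and 0.0565), and C6 was also lost without sgFGFR3/4 replicate 3 (0.0567). The second count was 0 without any 1 sgKLB library or without sgFGFR3/4 replicate 1 or 3, where the adjusted p-values of VTN were 0.0584 to 0.180 and of SERPING1 0.108 to 0.171. At an unadjusted p under 0.05 the counts were 7 and 6. Across all tested genes the Spearman correlation of transcript GC content with the log2 change was 0.20 in the first comparison and 0.42 in the second. A length and GC correction gave 2 higher and 0 lower members in the first and 3 higher and 0 lower in the second.

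The response to KLB knockout was set side by side in the 2 lines, which share no libraries. C1R, C1S, C6, C4BPA, C4BPB, CFI, VTN and CLU rose in both, which is 8 members or 61.5% of each line's rising list of 13. C6 did not reach the expression limit in sgNTC of either line, so its place among them rests on other groups. The HuH-7 calls of C1R, C4BPA, C4BPB and CLU were each lost when certain single libraries were left out, as given with each gene. Over all genes 560 rose in both, 42.4% of the HuH-7 list and 24.1% of the JHH-7 list. The line difference, tested as an interaction (JHH-7 change minus HuH-7 change), was called for 8 members, 3 higher and 5 lower, against 9.80% and 9.90% of 16731 genes. CD55 differed by -1.99 ± 0.17 (adjusted p = 1.79e-08), C4B by -1.81 ± 0.33 (0.000306), C4A by -1.37 ± 0.30 (0.00212), MASP1 by -1.34 ± 0.16 (2.86e-06) and SERPING1 by -1.31 ± 0.19 (1.98e-05). C1S (0.70 ± 0.20, adjusted p = 0.0134), CD59 (0.49 ± 0.11, 0.00166) and C2 (0.55 ± 0.19, 0.0433) differed in the other direction. The call for C2 was lost without HuH-7 sgNTC replicate 3 (0.34, adjusted p = 0.135), HuH-7 sgKLB replicate 2 (0.0903) or 3 (0.106), JHH-7 sgNTC replicate 1 (0.1) or 3 (0.0769) or JHH-7 sgKLB replicate 2 (0.129), and under 5 other settings.

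For sgFGFR4 the line difference was called for 0 members higher and 2 lower (2.37% and 1.75% over all genes), CD55 (-0.97 ± 0.17, adjusted p = 0.00259) and MASP1 (-0.61 ± 0.16, 0.0376). For sgFGFR3/4 it was called for 0 higher and 5 lower (3.77% and 3.44%), C6 (-1.15), C4A (-1.13), C4B (-1.11), CD55 (-1.003) and SERPING1 (-0.77). C6 did not reach the expression limit in sgNTC of either line, so its test rests on other groups. VTN rose in sgFGFR3/4 of both lines, 1 of the 8 rising members of HuH-7 (12.5%) and of the 3 of JHH-7 (33.3%). Over all genes 114 rose in both, which is 8.71% of the HuH-7 list and 33.9% of the JHH-7 list. The sgFGFR4 count was 1 without HuH-7 sgNTC replicate 1 or 3, HuH-7 sgFGFR4 replicate 1 or 3, JHH-7 sgNTC replicate 2 or 3 or JHH-7 sgFGFR4 replicate 1, in each of which MASP1 was lost (0.0580 to 0.122), as it was without JHH-7 sgFGFR4 replicate 2 (0.0664). The sgFGFR3/4 count was 2 without HuH-7 sgNTC replicate 3, HuH-7 sgFGFR3/4 replicate 3, JHH-7 sgNTC replicate 2 or JHH-7 sgFGFR3/4 replicate 1, and 3 without JHH-7 sgNTC replicate 3 or JHH-7 sgFGFR3/4 replicate 3. C6 was lost without any 1 HuH-7 sgNTC library, HuH-7 sgFGFR3/4 replicate 2 or 3, JHH-7 sgNTC replicate 2 or 3 or JHH-7 sgFGFR3/4 replicate 1 (0.0568 to 0.145). C4A was lost without HuH-7 sgNTC replicate 3, HuH-7 sgFGFR3/4 replicate 3, JHH-7 sgNTC replicate 2 or JHH-7 sgFGFR3/4 replicate 1 or 3 (0.0525 to 0.0834), and C4B in the same cases and 3 more, without HuH-7 sgNTC replicate 2, JHH-7 sgNTC replicate 3 or JHH-7 sgFGFR3/4 replicate 2 (0.0558 to 0.133). Added into 1 row, C4A plus C4B had a line difference of -1.001 ± 0.28 for sgFGFR4 (adjusted p = 0.046). For sgFGFR3/4 that of the summed row was -1.27 ± 0.28 (adjusted p = 0.00893). CD55 kept its call in every alternative for all 3 knockouts.

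Complement genes outside the 32 members were mostly silent. C1QA, C1QB and C1QC, which encode the C1q recognition molecule, and the ficolins FCN1 to FCN3 stayed at or under 0.19 FPKM in every library, as did the complement receptors CR1 and CR2. Of 11 recognition genes 2 were tested in HuH-7 and 1 in JHH-7, and of 17 receptors and inactivators 5 and 7. KLKB1, plasma prekallikrein, rose with KLB knockout in both lines (1.475 ± 0.21, adjusted p = 0.000493, and 1.55 ± 0.19, 2.36e-05), and SUSD4, a complement inhibitor, did too (0.68 ± 0.18, 0.0231, and 1.28 ± 0.22, 0.000374). KLKB1 lay near the limit for testing, at 0.24 to 3.42 FPKM in HuH-7 and 0.58 to 4.99 in JHH-7. Only 8 of 12 HuH-7 and 12 of 15 JHH-7 libraries held 1 FPKM or more of it. Its HuH-7 test therefore rests on other groups than sgNTC. C1QBP, which binds C1q heads and is abundant in mitochondria, fell in both (-0.44 ± 0.05, 0.000131, and -0.71 ± 0.06, 1.25e-06). CPN2, a subunit of carboxypeptidase N that trims anaphylatoxins, rose in JHH-7 sgKLB (0.83 ± 0.10, adjusted p = 2.63e-05). C5AR1, the C5a receptor, fell in all JHH-7 knockouts, with changes of -2.07 ± 0.16 in sgKLB (adjusted p = 1.86e-07), -1.08 in sgFGFR4, -0.99 in sgFGFR3/4 and -2.17 in sgFGFR1/3/4, within a range of 0.28 to 5.48 FPKM.

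Among 20 regulators that act on complement genes in the liver, 8 rose and 2 fell in HuH-7 sgKLB and 5 rose and 7 fell in JHH-7 sgKLB, while 3 rose and 10 fell in JHH-7 sgFGFR1/3/4. Over all genes 8.98% rose and 8.62% fell in HuH-7 sgKLB, 15.5% and 16.4% in JHH-7 sgKLB, and 20.8% and 19.0% in sgFGFR1/3/4. HNF4A, a hepatocyte transcription factor, rose with KLB knockout in both lines (0.38 ± 0.07, adjusted p = 0.00203, and 0.75 ± 0.07, 8.74e-07), and IL1R1, the interleukin-1 receptor, rose by 0.58 ± 0.11 (0.00317) in HuH-7. NR0B2, a repressor induced by bile acids, fell in both (-0.43 ± 0.09, adjusted p = 0.00519, and -1.68 ± 0.11, 6.03e-08). CEBPB, an acute-phase transcription factor, fell in JHH-7 sgKLB (-1.65 ± 0.12, adjusted p = 1.06e-07) and sgFGFR1/3/4 (-1.85 ± 0.12, 6.40e-08). The part of these regulators in the complement changes was not tested.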

How the data were processed

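RNA-seq libraries of 27 cultures were analysed. The authors quantified genes with RSEM on GRCh38 (hg38), per the submitters' processing notes, and deposited FPKM, 1 table per line. For versions, aligner, annotation release and strand setting, no source used here gives a value, and RSEM assigns reads shared by gene copies by estimate. Depth was estimated from the steps between low FPKM values, of which 70.37% to 91.13% lay within 0.1 of a whole fragment, so no counting intervals are given.

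From the deposited FPKM, log2(FPKM + 1) was fitted with limma 3.58.1 (trend and robust, R 4.3.3) over all groups of a line, or both lines for line comparisons, for genes with at least 1 FPKM in at least 3 libraries (14716, 14987 and 16731 genes). Tests are two-sided, with Benjamini-Hochberg adjustment over all genes and a threshold of 0.05. Fold changes on this scale understate those of low genes. The members, gene lists and alternatives were chosen with earlier results of these data known. Values per library are given for members called with a change of at least 0.5 or in a line difference. Up to 3 called genes per direction are named from other lists. Alternatives were a pseudocount of 0.1, no filter, TPM scaling, quantile normalization, a length and GC correction, a replicate block, only the groups compared, and leaving out each library.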

Additional observations from a re-analysis of the deposited data

Results flagged for a closer look

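In 15 tests the effect of the same knockout differed between the lines (interaction in limma, JHH-7 change minus HuH-7 change, n = 3 per group).

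For KLB knockout the difference was -1.99 for CD55 (0.32 in HuH-7 and -1.67 in JHH-7), -1.81 for C4B (1.42 and -0.39), -1.37 for C4A (0.93 and -0.44), -1.34 for MASP1 (0.49 and -0.85) and -1.31 for SERPING1 (1.476 and 0.17). It was 0.70 for C1S (0.66 and 1.36), 0.55 for C2 (0.29 and 0.84) and 0.49 for CD59 (0.13 and 0.62). MASP1 passed the threshold in opposite directions in the 2 lines. As 1 row, C4A plus C4B differed by -1.74 (adjusted p = 8.61e-05).

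For FGFR4 knockout the difference was -0.97 for CD55 (0.25 and -0.72) and -0.61 for MASP1 (0.19 and -0.43). For FGFR3/4 knockout it was -1.15 for C6 (1.95 and 0.81), -1.13 for C4A (0.75 and -0.38), -1.11 for C4B (0.91 and -0.20), -1.003 for CD55 (0.27 and -0.73) and -0.77 for SERPING1 (0.62 and -0.15). C4A, C4B, CD55, MASP1 and SERPING1 started from higher levels in JHH-7 sgNTC than in HuH-7 sgNTC, by 2.49, 1.03, 3.13, 1.11 and 5.67. The part of these starting levels in the differences was not tested.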

How the results depend on the processing

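Counts of members called stayed within 1.5 times under all alternatives for sgKLB in both lines, sgFGFR1/3/4, its comparisons with sgKLB and sgFGFR3/4, the line difference of sgKLB and the comparison of the sgNTC groups. All 18 calls between the sgNTC groups held in every alternative, as did 8 of 13 for HuH-7 sgKLB, 14 of 15 for JHH-7 sgKLB and 17 of 22 for sgFGFR1/3/4. The HuH-7 sgFGFR4 count of 1 became 2 with a pseudocount of 0.1 and 0 with no filter, quantile normalization, the length and GC correction, the replicate block or only the groups compared, and was 0 to 1 with a library left out. The HuH-7 sgFGFR3/4 count of 9 was 14 with TPM scaling, 3 with only the groups compared and 4 to 8 with a library left out. The JHH-7 count of 4 for sgFGFR4 was 1 with only the groups compared and 1 to 5 with a library left out, and that of 4 for sgFGFR3/4 was 2 with no filter, 1 with only the groups compared and 2 to 4 with a library left out. For HuH-7 sgFGFR3/4 against sgFGFR4 the count of 1 was 3 with TPM scaling, 2 with quantile normalization or the length and GC correction, 0 with only the groups compared and 0 to 1 with a library left out. For HuH-7 sgKLB against sgFGFR3/4 the count of 2 was 1 with a pseudocount of 0.1, 0 with no filter, the replicate block or only the groups compared, and 0 to 2 with a library left out. The line difference count of 2 for sgFGFR4 was 1 with no filter, quantile normalization, the replicate block or only the groups compared and 1 to 2 with a library left out. That of 5 for sgFGFR3/4 was 3 with a pseudocount of 0.1 or the replicate block, 2 with no filter or only the groups compared, 1 with quantile normalization and 2 to 6 with a library left out. CLU in sgFGFR1/3/4 reversed to 0.0335 with quantile normalization. The cause of these moves was not tested.

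The share of rising calls over all genes moved by more than 10 percentage points with TPM scaling in HuH-7 sgKLB (51.0% to 64.0%), sgFGFR4 (55.7% to 78.3%) and sgFGFR3/4 (55.2% to 77.8%), with the length and GC correction in HuH-7 sgFGFR4 (24.0%), HuH-7 sgFGFR3/4 (35.6%) and HuH-7 sgKLB against sgFGFR3/4 (39.5% to 55.0%), and with quantile normalization in HuH-7 sgFGFR4 (42.7%). In the line differences it moved from 57.5% to 36.8% with TPM scaling and 67.9% with the length and GC correction for sgFGFR4, and from 52.3% to 27.3% and 66.1% for sgFGFR3/4. The members' split in HuH-7 sgKLB was 13 up and 0 down with TPM scaling. In the line difference of sgFGFR3/4, TPM scaling moved the median of all genes by -0.105 and gave 0 higher and 7 lower members. Same-numbered libraries did not deviate together (correlations of -0.206 to 0.084 in HuH-7 and -0.189 to 0.053 in JHH-7), so the replicate number is not a pairing. With the replicate block, calls against sgNTC were lost for C4BPA (adjusted p = 0.0757) in HuH-7 sgKLB, CFI (0.0935) in HuH-7 sgFGFR4, C4A (0.0540) and C4BPA (0.0723) in HuH-7 sgFGFR3/4, CFHR2 (0.0562) in JHH-7 sgFGFR4, VTN (0.0718) in JHH-7 sgFGFR3/4 and C8G (0.0507) in sgFGFR1/3/4. Depth limits members near 1 FPKM, such as C6, C8B, C8G, MASP2 and CFHR2.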
